A study of Homo sapiens with 2 samples.

Results

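Genes for the protein subunits of the mitochondrial ribosome were followed in a map of ATF1 binding in HCT116 cells, an established human colon adenocarcinoma line. Members were the rows of the peak table whose gene name is MRPL or MRPS followed by a number and at most 1 further letter, which leaves out antisense and pseudogene names. This took 53 of the 15064 listed peaks. The cells were grown with 10% serum, with no treatment named in the labels, and chromatin fixed with 1% formaldehyde was precipitated with 5 µg of an antibody labelled 3xFlag-ATF1. The series has 1 such ChIP library and 1 input DNA library from the same cell line, taken without antibody. The labels do not state how the tagged ATF1 was introduced or how strongly it was expressed, and a rabbit IgG precipitation that the protocol mentions is not analysed here. A peak table cannot check the identity of the cells by marker expression. Values below come from the ChIP library alone, with no replicate, so no comparison carries a p-value.

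The mitochondrial ribosome translates the few messages encoded by mitochondrial DNA, which specify subunits of the respiratory chain and ATP synthase. Its protein subunits are all encoded in the nucleus, made in the cytosol and imported. Some have counterparts in bacterial ribosomes and others were added during mitochondrial evolution. ATF1 is a basic leucine zipper factor of the CREB family, which binds the cAMP response element (CRE), a palindrome, and with lower affinity its half-site.

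CRE half-sites were about as common in the family's promoter windows as in those of all genes. The CRE palindrome, which is rare in all promoters, was not found in the family's windows. RefSeq promoter windows of GRCh38.p14, from 250 bases before to 50 after a start, were matched by gene identifier for 70 of the 78 mitochondrial ribosomal protein genes of the reference, using the outermost start. Some summits lay outside these bases, and the letters under them were not searched. Examples are MRPL54 and MRPS26, with summits 334 and 265 bp downstream of the start, and MRPL51, 628 bp upstream. The palindrome TGACGTCA was in 0 of the 70 windows, against 2.56% of the windows of all 15812 protein-coding genes with a start and 3.62% of those with a summit within 1 kb. With so small a share in all genes, 0 of 70 also lies near the background. The half-site TGACG, read on both strands and counted also inside the palindrome, was in 23 of 70 (32.9%), against 29.3% of all genes, so this share lay near the background. Among the 54 of these genes with an ATF1 summit within 1 kb of a start, 17 held it (31.5%), against 37.1% of all genes with such a summit. Stretches are shown for the 5 members whose nearest half-site lay within 100 bp of their summit, and for MRPL54, chosen after its values were seen as a member with a site farther away that differs from the palindrome at 1 base. Each is read 5′ to 3′ on the gene's strand, with the half-site or its reverse complement in capitals. Positions are counted from the start base, which is 0, and sites that reach it or lie after it are shown with at most 30 bases.
MRPL49 (chr11:65122120-65122182, plus strand): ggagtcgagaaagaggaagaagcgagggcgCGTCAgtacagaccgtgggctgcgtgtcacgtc
MRPL49 at the start (chr11:65122166-65122195, plus strand): gggctgcgtgtcaCGTCActgctgagcgac
MRPL33 (chr2:27771737-27771766, plus strand): gccttttggccggTGACGgagactgcccag
MRPS17 (chr7:55951840-55951876, plus strand): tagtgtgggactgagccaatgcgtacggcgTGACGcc
MRPS15 (chr1:36464413-36464477, minus strand): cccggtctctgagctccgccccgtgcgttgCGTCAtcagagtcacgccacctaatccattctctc
MRPS36 (chr5:69217707-69217759, plus strand): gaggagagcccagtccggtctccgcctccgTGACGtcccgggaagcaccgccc
MRPL54 (chr19:3762625-3762681, plus strand): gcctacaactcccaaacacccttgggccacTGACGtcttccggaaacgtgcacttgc

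Read on its own strand, the second MRPL49 site runs TGACGTGA, the MRPS36 site TGACGTCC and the MRPL54 site TGACGTCT, each 1 base from the palindrome. The MRPS17 site, TGACGCCA, also differs at 1 base, and the MRPS15 site, TGACGCAA, at 2. The first MRPL49 site, TGACGCGC, and the MRPL33 site, TGACGGAG, differ at 3. Sites 1 base from the palindrome are thus more frequent among those shown than in the family. In all, 35 half-sites were found in the 23 promoters, and 8 of them differed from the palindrome at 1 base, 18 at 2 and 9 at 3. Promoters with a site at most 1 base away numbered 8 of 70 (11.4%), against 7.81% of all genes. Distances were measured from the middle base of a half-site to the summit. The nearest half-site lay 13 bp from the summit at MRPL33, 14 bp at MRPS17, 26 bp at MRPS36, 75 bp at MRPS15 and 87 bp at MRPL49, whose first site was 116 bp away. At MRPL54 the site shown was 359 bp from the summit and the nearest one 317 bp. Over the 17 genes with both a half-site and a summit near the start, this distance ranged from 13 to 317 bp with a median of 133 bp, and 6 were within 100 bp, the sixth at MRPL18, which the table does not name.

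Motifs of 2 other factors were found more often than in promoters at large. The YY1 motif AAGATGGCG was in 13 of 70 promoters (18.6%), against 2.69% of all genes and 3.85% of all genes with a summit near the start. Of its 14 sites, 12 were on the gene's strand and 10 began at or after the start base. The ETS motif ACTTCCGG was in 11 of 70 (15.7%), against 6.17% of all genes and 9.33% of those with a summit. Shares of the NRF1 motif GCGCATGCG, 3 of 70 (4.29%), and of the SP motif GGGCGG, 42 of 70 (60.0%), lay nearer to those of all genes, 2.77% and 58.3%. Among all genes with a summit near the start these 2 motifs were in 3.88% and 72.3%. The YY1 motif was in 10 of the 54 genes with a summit near the start and in 3 of the 16 without one, and the ETS motif in 10 and 1. Among those 54 genes, median fold enrichment was 8.63 with the YY1 motif and 9.87 without, and 8.085 with the ETS motif and 10.08 without. Over all genes with a summit near the start the order was the other way. The medians there were 9.79 and 7.89 for YY1, and 9.83 and 7.76 for ETS. Examples are shown for both motifs, with the motif or its reverse complement in capitals. They were chosen for a summit close to the motif or a high fold enrichment, so their values do not represent the family's promoters with these motifs.
MRPS24, YY1 (chr7:43869480-43869509, minus strand): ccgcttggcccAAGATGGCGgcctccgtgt
MRPS18A, YY1 (chr6:43687764-43687793, minus strand): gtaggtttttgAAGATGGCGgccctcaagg
MRPL3, ETS (chr3:131502972-131503033, minus strand): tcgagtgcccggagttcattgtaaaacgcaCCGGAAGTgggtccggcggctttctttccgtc
MRPL47, ETS (chr3:179604647-179604707, minus strand): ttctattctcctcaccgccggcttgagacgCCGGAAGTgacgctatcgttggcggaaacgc

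The summit lay 4 bp from the middle base of the YY1 motif at MRPS24, inside the motif, and 10 bp from the middle base at MRPS18A. At MRPL47 the last base of the ETS match is the first base of a CRE half-site, so the letters of both motifs overlap there. These matches describe letters in a window, and a promoter without a match may still bind the factor. Among promoters with a summit near the start, median fold enrichment was 10.04 for the 17 mitochondrial ribosomal protein genes with a CRE half-site and 8.74 for the 37 without. For all genes it was 10.46 with and 6.93 without. Such medians, also those for YY1 and ETS above, are over genes, each with the peak nearest to a start. A peak shared between genes counts for each of them. Among the 49 members with a start, the medians with and without a half-site differed by 1.02 (14 and 35 genes), with a range from -5.85 to 15.17 between the far bounds of their order-statistic intervals, so they were not separated. The difference turned to -0.48 (8.70 with, 9.18 without) when only the bases before the start were searched. The 49 members include MRPS27, MRPL28 and MRPL55, whose summits lay 11754, 4292 and 1555 bp from the start. Their fold enrichment belongs to a peak away from the searched window, and MRPL55 counts among those with a half-site. The MRPL34 peak also lies away from the window, at another start than the outermost. The plot of motif shares sets the family beside all genes.

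**Figure D1:**
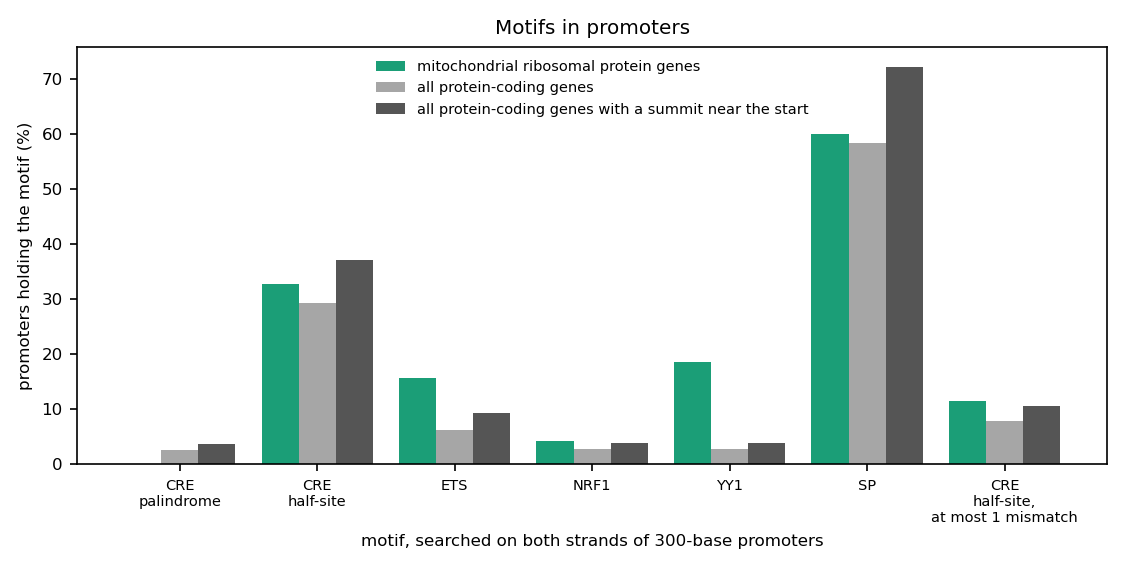
Bars give the percentage of 300-base promoters that hold each motif on either strand, for 70 mitochondrial ribosomal protein genes, all 15812 protein-coding genes with a start, and the 7964 of these with an ATF1 summit within 1 kb of a start. The YY1 bar of the family reaches 18.6% and the ETS bar 15.7%, and the CRE palindrome bar is at 0.

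Fold enrichment, the authors' ratio of the peak to a background that is not specified, spanned more than 10-fold among members. The highest was 38.08 at MRPL49 and the lowest 3.28 at MRPS6, with a median of 8.74 (interval of the median over peaks 7.41 to 12.64). All listed peaks had a median of 6.97 and a lowest value of 3. Of the 53 members, 36 were above that median, as were 49.9% of all peaks, and 15 were in the top decile, from 14.87 upwards, which held 10.1% of all peaks. Side by side, 11 of 50 cytosolic ribosomal protein peaks and 6 of 27 complex I subunit peaks were in that decile, with medians of 9.27 and 9.08. No test of these differences was possible with 1 library, and expression of the genes was not measured.

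**Figure D2:**
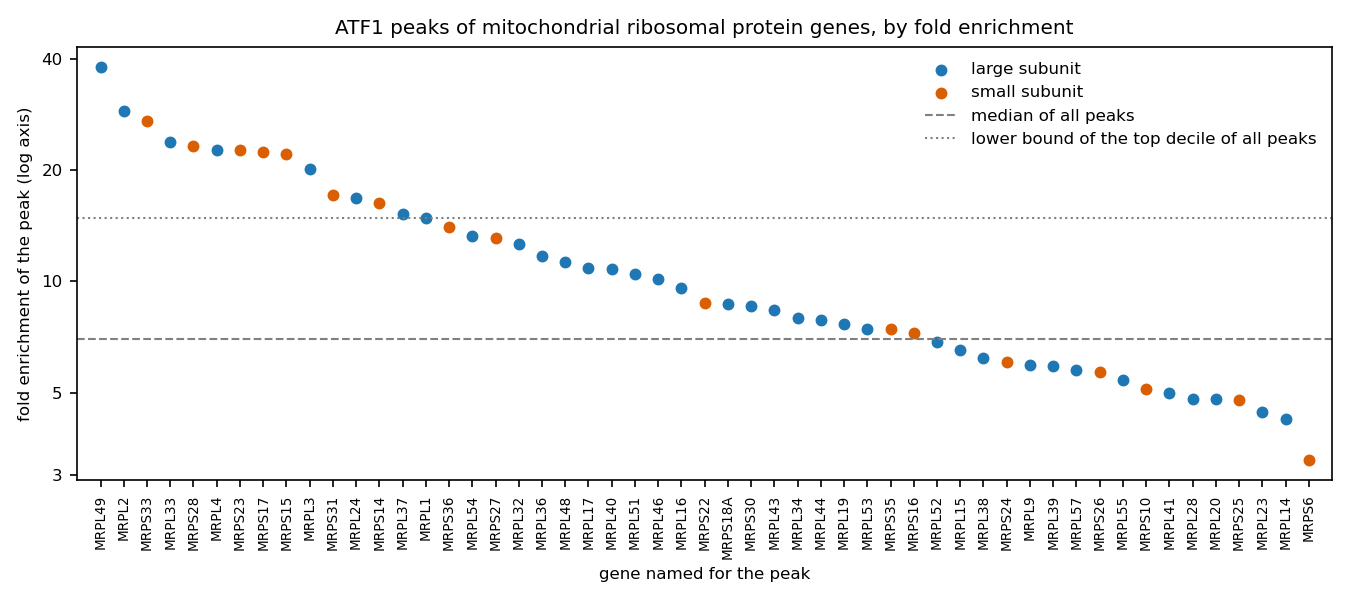
Each point is the fold enrichment of 1 peak (log axis) for the 53 genes, ordered from high to low and coloured by the ribosomal subunit. The dashed line is the median of all peaks (6.97) and the dotted line the lower bound of the top decile (14.87), and 15 genes lie at or above the latter.

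In the large subunit, 36 peaks had a median fold enrichment of 8.63 (interval 6.86 to 11.25). MRPL49, a subunit protein with no bacterial counterpart, had the strongest member peak. It covers chr11:65121411-65123205, is classed as exonic by the authors, holds 418 tags (Poisson interval 379 to 460) and exceeds 99.2% of all peaks in fold enrichment. MRPL2, whose bacterial counterpart helps to form the peptidyl transferase centre, followed at 28.83 with 323 tags (interval 289 to 360; chr6:43058865-43060550, exonic). MRPL33 had 23.79 with 128 tags. MRPL4, which lines the exit tunnel for the nascent chain, had 22.68 with 641 tags (chr19:10251157-10253231). MRPL3, also near the catalytic centre, had 20.07 with 174 tags. These 5 peaks were all exonic. The median listed peak held 162 tags: the counting intervals of MRPL49, MRPL2 and MRPL4 lay above this, that of MRPL3 (149 to 202) covered it and that of MRPL33 (107 to 152) lay below.

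MRPL24, a protein of the exit tunnel region, showed the opposite balance. Its fold enrichment of 16.84 exceeded 92.5% of all peaks, while its 40 tags (interval 28.6 to 54.5) exceeded 15.4%. MRPL1, of the stalk through which transfer RNA leaves, was similar, with 14.87 and 48 tags (interval 35.4 to 63.6).

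At the low end, MRPL14, which sits at the subunit interface, had 4.25-fold enrichment with 339 tags, and MRPL23, at the exit tunnel, 4.43 with 195 tags. MRPL20 and MRPL28 both had 4.80, with 430 and 110 tags. The 6 weakest member peaks, these and those of MRPS6 and MRPS25, were 1773 to 3543 bp long, and the 12 strongest 924 to 2075 bp. MRPL23 had the longest of all members, 3543 bp, followed by MRPL41 with 3240 bp and MRPL36 with 3152 bp, whereas the median member peak was 1529 bp. MRPL40, of the central protuberance, held the most tags, 778 (interval 724 to 835), at 10.81-fold.

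In the small subunit, 17 peaks had a median of 13.11 (interval 6.04 to 22.15), which overlaps the interval of the large subunit, so the medians were not separated. MRPS33 led with 27.13 and 110 tags (interval 90.4 to 133; chr7:141014468-141015542, upstream class). MRPS23, like MRPS33 without a bacterial counterpart, had 22.65 with 135 tags, and MRPS28 had 23.26 with 147 tags. MRPS17 and MRPS15, whose bacterial counterparts bind the small subunit rRNA early in assembly, had 22.42 with 280 tags and 22.15 with 246 tags. MRPS31 had 17.10 with 107 tags. In the top decile were 7 of the 17 small subunit peaks and 8 of the 36 large subunit peaks.

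The weakest small subunit peaks were at MRPS6, 3.28-fold with 345 tags (interval 310 to 383; chr21:34072412-34074738), and MRPS25, 4.78-fold with 226 tags. MRPS10 had 5.10-fold with 25 tags (interval 16.2 to 36.9), the fewest of any member, in a peak of 646 bp. MRPS26 held 566 tags at 5.70-fold. The peak at MRPS36, a gene now named KGD4 after a role in the α-ketoglutarate dehydrogenase complex, had 14.02-fold and 349 tags. This gene was counted with the small subunit by its older name only. Without it, in a check that was not planned, the median fold enrichment of the 52 remaining members was 8.72. Genes with a bacterial counterpart had a median of 10.2 over 26 peaks (interval 6.04 to 16.84) and genes without one 8.70 over 27 (interval 6.86 to 13.11), again overlapping. Of the 3 MRPS18 paralogs, the peak table names MRPS18A alone, at 8.70-fold with 67 tags; its protein is part of the large subunit in ribosome structures, and so is that of MRPS30, with 8.56-fold and 216 tags.

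Tags and fold enrichment ranked the members differently. Across the 53 peaks Spearman's rho was -0.10 between tags and fold enrichment, 0.82 between tags and peak length, and -0.41 between fold enrichment and length. Over all peaks these were 0.07, 0.82 and -0.23. The points share 1 library and neighbouring bases of the genome, and they are not replicates. MRPS6 and MRPS17 illustrate the spread, with 345 and 280 tags but 3.28-fold and 22.42-fold enrichment.

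**Figure D3:**
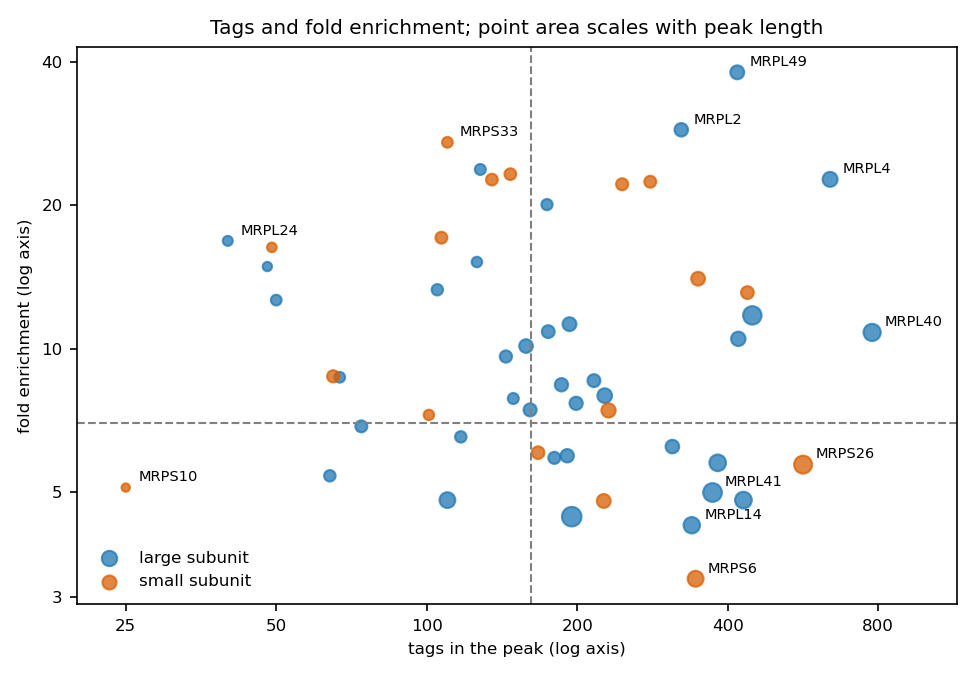
Tags in the peak (log axis) are plotted against fold enrichment (log axis) for the 53 members, coloured by subunit, with point area in proportion to peak length and dashed lines at the medians of all peaks (162 tags, 6.97-fold). MRPL49, MRPL2 and MRPL4 are high on both, whereas MRPS6 and MRPL14 hold many tags at low fold enrichment and MRPL24 few tags at high fold enrichment.

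Summits lay close to gene starts. For 49 members with a RefSeq start, the summit was a median of 89 bp from the gene's nearest start (quartiles 25 and 155 bp). Of all peaks on chromosomes with a start in the promoter table, 49.7% were within 1 kb of any protein-coding start. That share counts peaks whatever gene they are named for, whereas members without a start are left out here. Among the 49 members, 46 were within 1 kb. Of these 46, 22 summits were upstream of the start and 24 downstream, and the median position was 3.5 bp downstream. The summit was 2 bp from the start at MRPL57, 5 bp at MRPS36, 7 bp at MRPS35 and 9 bp at MRPS17. All peaks within 1 kb of a start had a median distance of 87 bp, beside 87.5 bp for the members, so how close the members' summits lay did not set them apart. By RefSeq starts, MRPL1, at 785 bp, was the farthest inside the 1 kb window and MRPL55, at 1555 bp, the nearest outside it. The MRPL1 summit was only 90 bp from the gene start that the authors list.

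**Figure D4:**
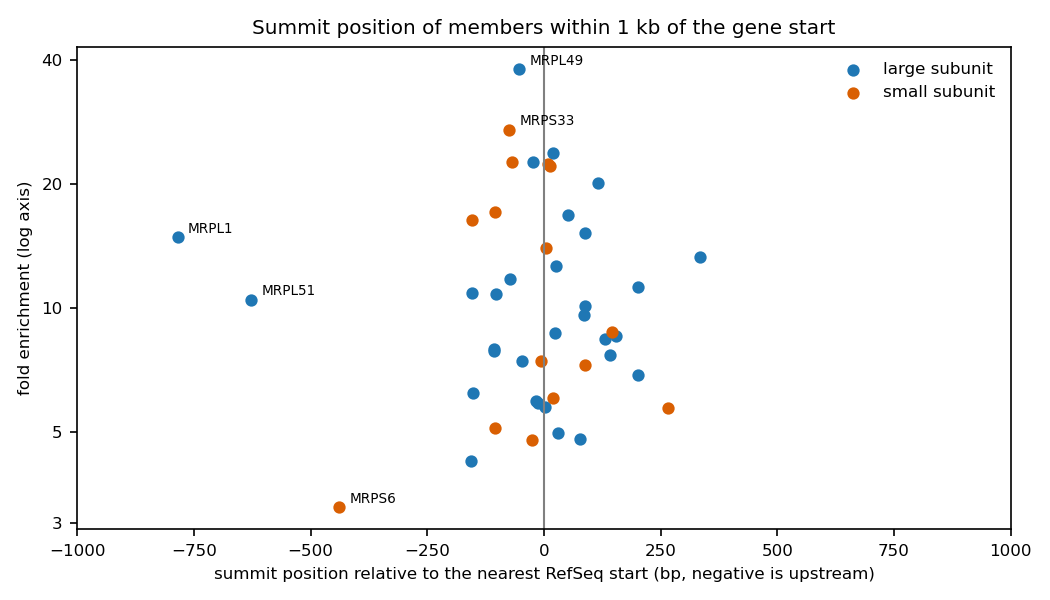
The position of the summit relative to the nearest RefSeq start (bp, negative upstream) is plotted against fold enrichment (log axis) for the 46 members within 1 kb, coloured by subunit. 41 summits lie within 250 bp on either side of the start, with MRPL1 and MRPL51 as the farthest upstream.

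Peaks away from the start were few. MRPS27, a pentatricopeptide repeat protein of the small subunit, had an intronic peak 11754 bp downstream of its start with 13.11-fold enrichment and 438 tags (interval 398 to 481; chr5:72307649-72309152). The MRPL28 peak was 4292 bp from the start and in the downstream class, and the MRPL55 peak was exonic with 5.40-fold and 64 tags. Of the 4 members without a start in the promoter table, MRPL15, MRPL2 and MRPS28 had summits 27, 525 and 213 bp from the nearer end of their own gene, and MRPL23 6280 bp.

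By the authors' classes, 33 member peaks were exonic (62.3%, against 43.5% of all peaks), 9 intronic (17.0%, against 33.9%), 10 upstream (18.9%, against 19.9%) and 1 downstream (1.89%, against 2.7%). Peaks in the upstream class belonged to 8 of the 17 small subunit genes and 2 of the 36 large subunit genes, MRPL17 and MRPL51. This class did not always match the side of the RefSeq start on which a summit lay. Upstream of that start were 22 member summits, those of the large subunit genes MRPL49, MRPL1 and MRPL14 among them. MRPS17 was in the upstream class with its summit 9 bp downstream, and MRPL1 was exonic with its summit 785 bp upstream. The authors' gene positions differ from RefSeq at both. By those positions the summit was 32 bp before MRPS17 and 90 bp inside MRPL1. Median fold enrichment was 13.6 for upstream, 8.74 for exonic and 7.85 for intronic member peaks. The interval for the 10 upstream peaks, 4.78 to 22.65, covers the other medians.

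Starting from genes instead of rows, 54 of the 70 mitochondrial ribosomal protein genes with a RefSeq start had a summit within 1 kb of it (77.1%, exact binomial interval 65.6 to 86.3%), against 50.4% of all protein-coding genes with a start. Named in the table were 54 of all 78 (69.2%), against 61.0% of all protein-coding genes. Among them was MRPL58, a peptidyl-tRNA hydrolase built into the large subunit, under its older name ICT1 (8.61-fold, 379 tags, summit 257 bp from the start). The share near a start was 36 of 44 for the large and 18 of 26 for the small subunit, a difference of 12.6 percentage points with an interval from -7.25 to 33.7. It was 50 of 64 (78.1%) for cytosolic ribosomal proteins and 22 of 31 (71.0%) for complex I subunits.

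**Figure D5:**
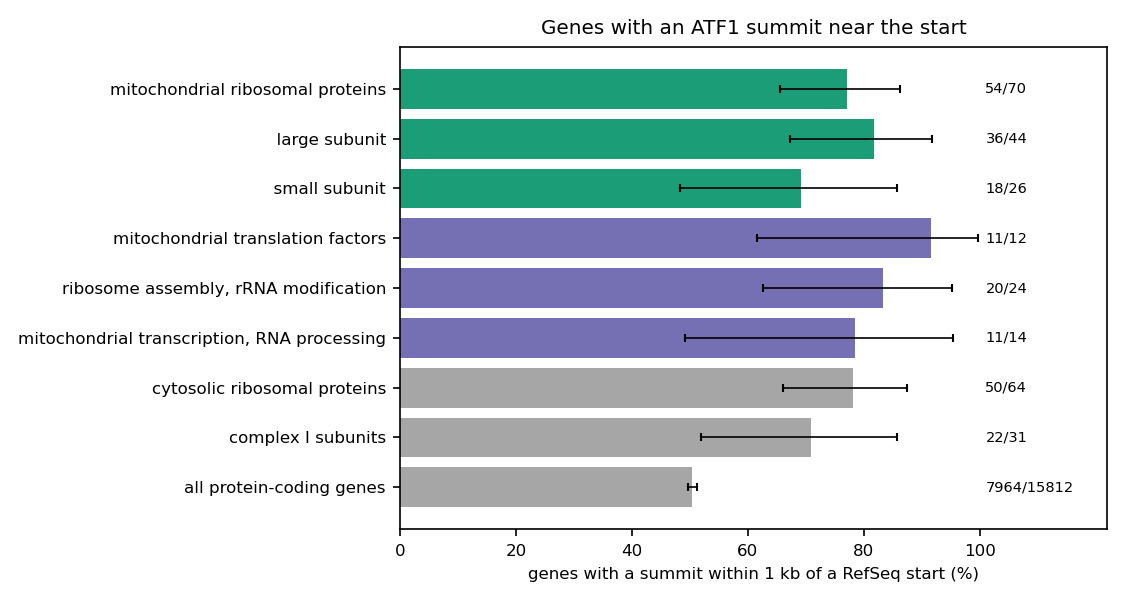
Bars give the percentage of genes with an ATF1 summit within 1 kb of a RefSeq start, with exact 95% binomial intervals over genes and the counts at the right, for the mitochondrial ribosomal proteins and their subunits, 3 lists of other mitochondrial gene expression genes, 2 related families and all protein-coding genes. The family stands at 77.1% and all protein-coding genes at 50.4%.

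Because each gene name and each peak occur once in the table, a peak between neighbouring genes is named for only 1 of them. At 7 genes the table does not name, a summit lay within 1 kb of the start in a peak named for another gene. MRPS9 was 71 bp from the summit of a 22.62-fold peak with 117 tags named for an uncharacterised RNA gene. MRPL47 was 261 bp from a 14.63-fold summit named for NDUFB5, a complex I subunit. MRPL18 was 161 bp from a 7.20-fold summit named for TCP1, a cytosolic chaperonin subunit, and MRPL27 98 bp from a 7.0-fold one named for EME1, a DNA repair endonuclease subunit. MRPL50 was 407 bp from a 10.04-fold summit of ZNF189. MRPS12, a protein of the decoding centre, was 423 bp from a 9.46-fold summit named for SARS2, the mitochondrial seryl-tRNA synthetase. The last, MRPS11, shares the peak of MRPL46.

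MRPL46 and MRPS11 are neighbours on opposite strands, and their shared peak joins a large and a small subunit gene. It had 10.12-fold enrichment and 158 tags (interval 134 to 185), with the summit 88 bp from the MRPL46 start and 408 bp from the MRPS11 start. Shared summits were found at 10 of the 46 member peaks near a start (21.7%), beside 11.4% of all peaks near a start; genes without a RefSeq start in the table are not counted as partners. Over the whole family 15 genes had a partner, 14 of them on the opposite strand. The strongest shared peak was that of MRPL49, whose summit was also 134 bp from the start of FAU, which encodes a cytosolic ribosomal protein fused to a ubiquitin-like domain. MRPL37 shared with CYB5RL (15.20-fold), MRPL32 with the proteasome gene PSMA2 (12.64-fold), MRPL40 with the histone chaperone gene HIRA (10.81-fold) and MRPL51 with the condensin gene NCAPD2 (10.48-fold). MRPL57 with SKA3, MRPL9 with OAZ3 and MRPL14 with TMEM63B were weaker, from 4.25-fold to 5.95-fold. MRPS6 and SLC5A3 lie on the same strand, and both starts were 439 bp from their summit. A peak over such a promoter cannot be assigned to either gene.

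For 16 genes with a RefSeq start, the nearest listed summit was more than 1 kb away. Besides MRPS27, MRPL28 and MRPL55 they were MRPL11, MRPL12, MRPL22, MRPL30, MRPL42, MRPL45, MRPS2, MRPS5, MRPS7, MRPS18B, MRPS18C, MRPS21 and MRPS34, none of which the table names. MRPL11 and MRPL12 belong to the stalk that recruits translation factors, and MRPL45 helps to hold the ribosome at the inner membrane. The nearest summit was 2848 bp away for MRPL22 and 43794 bp for MRPS5. MRPS18B had no summit near its start, but one 516 bp from its other end, in a 26.26-fold peak named for ATAT1. Of the genes without a RefSeq start that the table does not name, MRPL21 had a 29.95-fold summit 35 bp from an end, named for IGHMBP2, and MRPL10 an 11.99-fold summit 29 bp from an end, named for LRRC46. MRPL35 and MRPL13 had none within 1 kb. Peaks below 3-fold or a score of 50 are not in the table, so a gene without a listed peak may still be bound. Each gene name also has only 1 row. For MRPS27, MRPL28 and MRPL55 that row is a peak away from the start. A second peak at their starts could not appear under their names, whatever its strength.

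CpG dinucleotides were of middling number in the family's promoters. The 70 windows held a median of 24 (quartiles 20 and 28), beside 22 (quartiles 8 and 32) for all protein-coding genes and 27 (quartiles 20 and 34) for all genes with a summit near the start. Members of the family with a summit near the start had a median of 24 and those without 24.5. Across the 54 with one, Spearman's rho between CpG number and fold enrichment was -0.40, beside -0.02 across all 7964 such genes. These are genes and not separate peaks. MRPL46 and MRPS11 share a peak, which counts for each, and MRPL34 is given the peak named for ABHD8 (7.20-fold), nearest to any of its starts. MRPS6, with the lowest fold enrichment, had 51 CpG in its window. MRPL41, at 4.98-fold, also had 51. MRPL49 had 26.

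Other genes of mitochondrial gene expression had summits near their starts at 46 of 55 (83.6%), against the 50.4% of all protein-coding genes. Among translation factors it was 11 of 12. The strongest were the recycling factor gene MRRF (42.76-fold), the elongation factor genes GFM1 (28.67-fold) and TUFM (26.18-fold), and GUF1 (19.40-fold); the release factor gene MTRFR had none within 1 kb. Among assembly and rRNA modification genes it was 20 of 24, led by the GTPase gene GTPBP10 (37.72-fold, in a peak named for another gene), the rRNA methyltransferase gene MRM3 (30.02-fold), the helicase gene DDX28 (27.61-fold) and the pseudouridine synthase family gene RPUSD4 (16.88-fold, in a peak named for FAM118B). MTERF4, RCC1L, YBEY and MRM2 had none within 1 kb of a start.

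Among mitochondrial transcription and RNA processing genes it was 11 of 14. TRMT10C (40.04-fold) and PRORP (17.65-fold, the fifth in the list) encode subunits of mitochondrial RNase P, and so does HSD17B10 (21.41-fold). SUPV3L1 (37.76-fold) and PNPT1 (20.68-fold) encode the RNA helicase and the nuclease of RNA decay. MTPAP, ELAC2 and the RNA polymerase gene POLRMT had none within 1 kb. Of the ribosomal proteins with other symbols, PTCD3 (21.05-fold), CHCHD1 (10.26-fold), AURKAIP1 (7.83-fold) and DAP3 (6.61-fold, in a peak named for YY1AP1) had a summit near the start, and GADD45GIP1 did not.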

How the data were processed

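The submitters' processing notes name hg38, bedtools, Bowtie2 and CASAVA. For the caller of the peaks, its settings and its control, the sources used here name none. The columns hold, per the file headers, whole-number tag counts per peak, a fold enrichment (a ratio), a score of unstated construction, a summit and 1 assigned gene. All are values the authors deposited, used only for description and ranking inside the same list. The total depth of either library is unknown, and 1 line without a position was left out. No other sample's table was analysed here.

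Starts, strands and promoters came from RefSeq tables of GRCh38.p14, the assembly of hg38. A gene counted as near a summit when any summit lay within 1 kb of any of its starts. Motifs were searched as exact letters on both strands of 1 window per gene. Intervals (95%) are exact Poisson for tags, exact binomial for shares, Newcombe for the difference of shares and order-statistic for medians. They cover counting over tags, genes or peaks only, and p-values were not computed. Members, gene lists and motifs were chosen with earlier results of these data known. Named genes were the 12 strongest and 6 weakest members, the 4 with most tags, the 3 longest and those far from a start. Also named were the MRPS18 paralogs and unlisted family genes. From the other lists came the 4 strongest genes and all genes without a listed summit near the start. Further members were named for shared or nearby summits after their values were seen. The distance and motif steps were tested on simulated data. Python 3.11.15, numpy 2.4.6, pandas 2.3.3, scipy 1.17.1 and matplotlib 3.10.9 were used.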

Additional observations from a re-analysis of the deposited data

How the results depend on the processing

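With only the 7556 stronger peaks by fold enrichment, the share of the family's genes with a summit near the start was 58.6% (all protein-coding genes 29.99%), that of the other mitochondrial genes 63.6%, the share of the family with a row of its own 47.4% (all 30.7%), and the median fold enrichment of members 12.9; these shifts follow from leaving out weaker peaks. Counting the palindrome alone put the CRE share at 0%, and counting half-sites at most 1 base from it, an alternative chosen after seeing the data, at 11.4%. The median fold of members with a half-site minus that of members without, peaks away from the start included, was 1.02 (14 and 35 genes). This difference was 4.96 for sites at most 1 base from the palindrome (6 genes), and turned to -0.48 when only bases before the start were searched. The cause was not tested. The same difference for the palindrome could not be computed, because no searched window of the family held it. Windows of 500 bp and 5 kb, peak overlap and either gene end kept the family's share near a start within its interval, but counting either end took the large minus small subunit difference from 12.6 to 0.44 percentage points. No paired analysis was possible because the result comes from 1 library. Depth is unknown, so absence of a peak does not show absence of binding.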
